A study of Mus musculus with 2 samples.

Results

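The Mir23, Mir27 and Mir24 microRNA genes lie in 2 paralog clusters, and 5 of their loci were measured here out of 1973 microRNA loci in the count tables. The members were taken by name: Mir23b and Mir27b on chromosome 13, and Mir23a, Mir27a and Mir24-2 on chromosome 8. All 5 had a row of their own and passed the minimum mean count of 100. Small-RNA libraries (reads under 30 bases) came from facial prominences of B6NCrl mouse embryos at embryonic day 11.5. Facial prominences are the swellings of mesenchyme and epithelium that grow and fuse into the face. There was 1 group of 2 biological replicates, with tissue pooled from 109 embryos in replicate 1 and 88 in replicate 2, males and females together. The labels describe the embryos as healthy and name no treatment or mutant allele.

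A microRNA gene is transcribed as a long precursor, cut to a hairpin and then to a short mature RNA from either arm, which pairs with target messages through its seed, bases 2 to 8. Both clusters place a Mir23, a Mir27 and a Mir24 hairpin in the same order on the same strand. In other mouse and human work, these microRNAs are known from endothelium and vessel growth, from TGF-beta and Smad signalling (the chromosome 13 cluster in mouse liver progenitors), from fat cell differentiation (miR-27 and Pparg) and from muscle progenitors (miR-27b and Pax3 in mouse). None of these roles was measured in these libraries.

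The mature sequences below show the shared seed of the Mir27 pair and where reads of the Mir27 and Mir24 pairs can be told apart; miR-23b-3p of Mir23b is not among them. They were taken from RefSeq on GRCm38.p6, are written 5′ to 3′, and have the seed in capitals. The first 3 lines set the Mir23 and Mir27 seeds side by side, and the last 3 show the Mir24 arms.
miR-23a-3p (Mir23a): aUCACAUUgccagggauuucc
miR-27a-3p (Mir27a): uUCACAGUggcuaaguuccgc
miR-27b-3p (Mir27b): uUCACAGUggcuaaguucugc
miR-24-3p (Mir24-1 and Mir24-2): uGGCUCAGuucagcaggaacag
miR-24-1-5p (Mir24-1): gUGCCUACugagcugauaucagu
miR-24-2-5p (Mir24-2): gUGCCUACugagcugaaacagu

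The seeds of miR-23a-3p and miR-27a-3p differed by 1 base, U7G, with positions counted from 1 at the 5′ end of the mature RNA. The mature miR-27a-3p and miR-27b-3p had the same seed and differed only by C19U, so their first 18 bases were identical. Among the 1679 mature names listed in the RefSeq table used, these 2 had the seed UCACAGU. Because miR-24-3p is the same 22 bases at Mir24-1 and Mir24-2, a read of that arm matches both chromosomes. The 5p arms of the Mir24 pair shared their first 16 bases and then diverged. The seed GGCUCAG of miR-24-3p was also listed for 4 other loci (Mir5124b, Mir6369, Mir6410 and Mir6413), and each had 0 counts in both libraries.

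The hairpins carried the same pattern. The longest run shared by Mir27a and Mir27b was 20 bases, and that shared by Mir23a and Mir23b was also 20. Mir24-2 and Mir24-1 shared a run of at least 28 bases, which held all of miR-24-3p and ended at the end of the Mir24-1 hairpin. Reads placed at several positions were kept apart from the locus counts, and they were 32.9% of mapped reads in replicate 1 and 33.3% in replicate 2. The Mir24-2 count therefore leaves out reads that match both Mir24 loci, and how many there were is unknown. Short reads of Mir23 and Mir27 that end inside the shared run would be left out in the same way.

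On the mm10 assembly, Mir23b lies at 63300484 to 63300557 of chromosome 13 and Mir27b at 63300712 to 63300784, both on the plus strand. Mir24-1 follows at 63301208 to 63301275. The GENCODE M21 annotation puts Mir23b in an intron of the protein-coding gene 2010111I01Rik, while Mir27b and Mir24-1 overlap annotated exons of that gene. Fancc lies on the other strand, and all 3 hairpins are in its introns. On chromosome 8, Mir23a lies at 84208518 to 84208592, Mir27a at 84208672 to 84208758 and Mir24-2 at 84208815 to 84208921, all on the plus strand. Mir24-2 overlaps Mir3074-2, a microRNA gene on the minus strand, and an exon of the long noncoding RNA gene Gm26532. Mir23a and Mir27a overlap no other gene in that annotation. The hairpins span 792 bases on chromosome 13 and 404 bases on chromosome 8. The gap before the Mir24 hairpin is 423 bases in the first cluster and 56 in the second.

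Sense counts over all loci came to 1941745 for replicate 1 and 2319881 for replicate 2. Levels are given as CPM, counts scaled to 1e+06 sense counts per library. Mature RNAs are sequenced whole, so levels were not divided by hairpin length. The counts do not separate the arms of a hairpin. Intervals of 95% are exact binomial intervals and cover counting error only, and SDs are over n = 2. With 2 libraries of 1 group, no comparison of conditions exists, and the smallest two-sided p that a sign test over libraries could give is 0.5.

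Mir23b was the most abundant member, at 27019 CPM in the first replicate and 27398 CPM in the second. It held place 9 of all loci in both libraries. Its chromosome 8 paralog Mir23a stood at 9627 and 9352 CPM, in places 25 and 27. Both Mir23 genes were thus far above the other members, and their pools differed little. Places and levels leave out reads placed at several positions, so loci with such reads can rank too low.

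Mir27b, which carries the same seed as Mir27a, had 2440 and 2531 CPM in the libraries, in places 74 and 73. Mir27a had 159 CPM (95% interval 141 to 177) for replicate 1 and 177 CPM (160 to 195) for replicate 2. The intervals of Mir27a overlapped between the pools. Mir24-2 had 136 CPM (120 to 153) and 162 CPM (146 to 179), again with overlapping intervals. As means, the levels were 27209 ± 268 CPM for Mir23b, 9489 ± 195 CPM for Mir23a, 2485 ± 64.5 CPM for Mir27b, 168 ± 12.8 CPM for Mir27a and 149 ± 18.2 CPM for Mir24-2. Of the 4 steps in that order, 3 exceeded the larger pool difference of their loci in both libraries. The one between Mir27a and Mir24-2 did not. The Mir24-2 level leaves out reads that match both Mir24 loci, so its last place holds only for reads placed at 1 position.

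**Figure D1:**
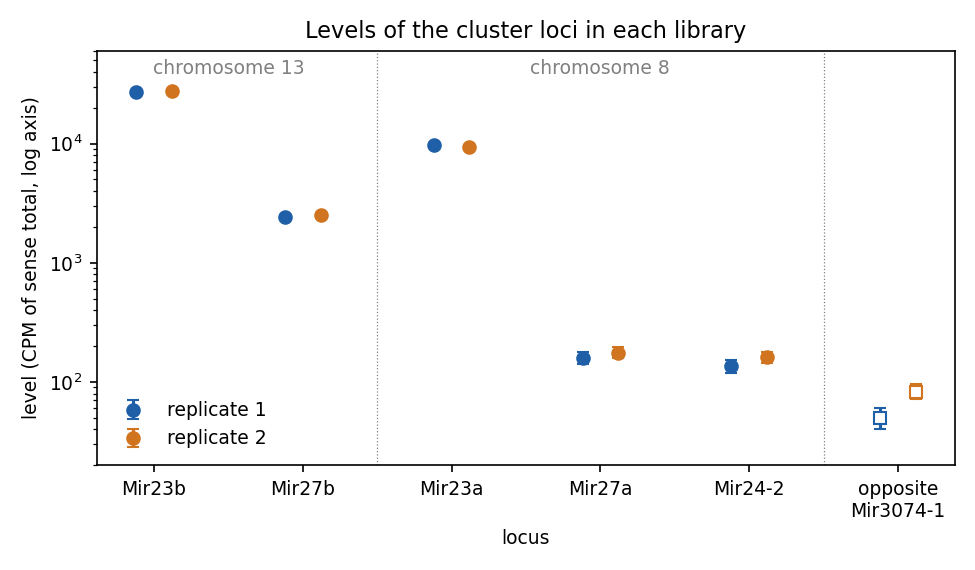
Level of each locus in each library (CPM of the sense total, log axis); points are libraries, bars are exact 95% counting intervals, and open squares are the counts opposite Mir3074-1, the strand of Mir24-1. The 5 members run from 27209 CPM for Mir23b to 149 CPM for Mir24-2, with the libraries of each close together.

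The loci nearest to each member in mean level were Mir214 and Mir30e for Mir23b, Mir130b and Mir298 for Mir23a, Mir301 and Mir106a for Mir27b, Mir345 and Mir187 for Mir27a, and Mir495 and Mir412 for Mir24-2. Mir23b stood between Mir214, a mesenchymal microRNA, at 29999 ± 2093 CPM and Mir30e at 25858 ± 1212 CPM. Mir23a stood between Mir130b at 9568 ± 797 CPM and Mir298 at 9105 ± 484 CPM. None of these 10 neighbours differed from its member, in both libraries, by more than the larger pool difference of the pair. The neighbours were picked as nearest in mean level in these same libraries, so small differences follow from that choice.

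Within each cluster the first hairpin held nearly all of the measured counts. Mir23b and Mir27b together took 2.95% of all sense counts in replicate 1 (95% interval 2.92 to 2.97) and 2.99% in replicate 2 (2.97 to 3.01). The 3 chromosome 8 loci took 0.992% (0.978 to 1.01) and 0.969% (0.956 to 0.982). The chromosome 13 share was above the chromosome 8 share in both libraries, although it sums 2 loci against 3. Mir23b made up 91.6% ± 0.123 of its cluster's counts, and Mir23a 96.8% ± 0.370 of the counts of the chromosome 8 cluster. These shares hold no reads that match both Mir24 loci.

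Mir23b exceeded Mir27b, 154 bases downstream of it, by a log2 ratio of 3.47 in replicate 1 and 3.44 in replicate 2 (3.45 ± 0.02). Mir23a exceeded Mir27a, 79 bases downstream, by 5.92 and 5.73 (5.82 ± 0.14). The step from Mir23 to Mir27 was therefore larger on chromosome 8 than on chromosome 13 in both libraries, and by more than the spread between them. Mir23a exceeded Mir24-2 by 6.15 in replicate 1 and 5.85 in replicate 2 (6.00 ± 0.21). Mir27a and Mir24-2 differed by 0.22 (95% interval -0.02 to 0.47) and 0.13 (-0.08 to 0.33), with Mir27a higher in both libraries. That difference was below the pool difference of Mir24-2 in both libraries, and both intervals include 0. The Mir24-2 count leaves out reads that match both Mir24 loci, among them reads of the whole miR-24-3p arm. Both ratios to Mir24-2 therefore hold for reads placed at 1 position and not for its mature RNAs as a whole.

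**Figure D2:**
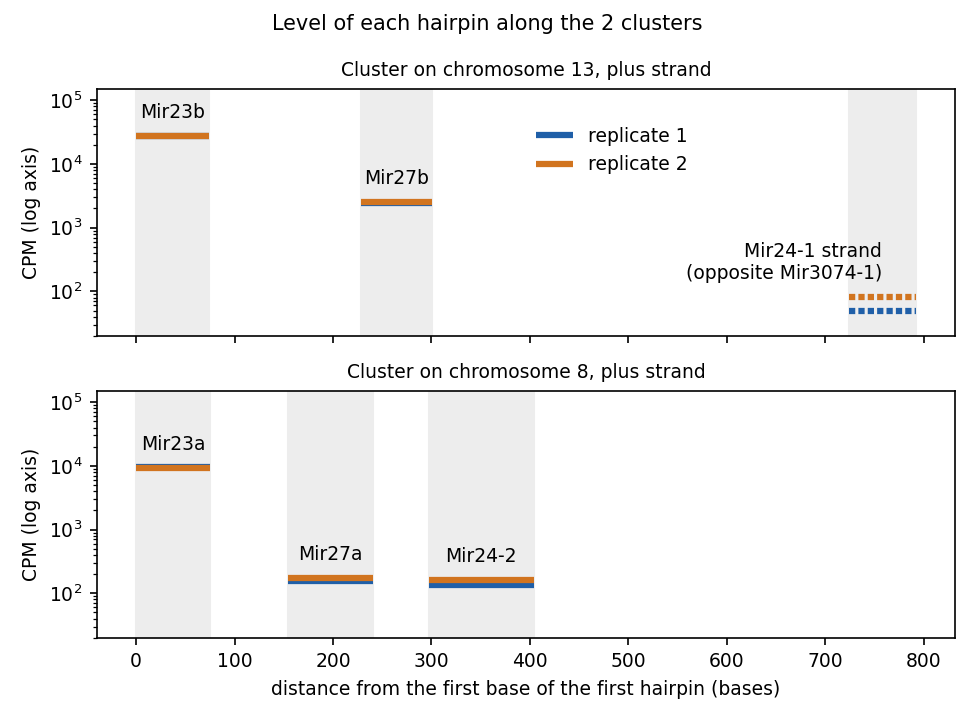
Hairpins of each cluster drawn to scale (grey bands; horizontal axis, bases from the first base of the first hairpin), with the CPM of each library as a line on a log axis. The Mir23 hairpin is highest in each cluster; the broken lines at Mir24-1 are counts opposite Mir3074-1, at 50.0 and 82.8 CPM.

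Both families drew most of their counts from chromosome 13, but to different degrees. Mir23b exceeded Mir23a by a log2 ratio of 1.49 in replicate 1 and 1.55 in replicate 2, which is 2.81-fold and 2.93-fold. Mir27b exceeded Mir27a by 3.94 and 3.84, which is 15.4-fold and 14.3-fold. Both ratios were larger than the differences between the pools. The Mir27 ratio was above the Mir23 ratio by 2.45 in replicate 1 and 2.29 in replicate 2, a mean of 2.37 ± 0.12. This contrast equals the difference between the clusters in the step from Mir23 to Mir27, so it is not a separate result. As a share of the family's counts, Mir23b held 73.7% (73.4 to 74.1) in replicate 1 and 74.6% (74.3 to 74.8) in replicate 2. Mir27b held 93.9% (93.2 to 94.5) and 93.5% (92.8 to 94.1). The family shares do not overlap between Mir23 and Mir27. Reads too short to reach a base that differs are missing from both sides, and their part in these ratios was not tested.

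The ratio between the Mir23 paralogs shifted slightly between the pools. It was higher in replicate 2 by 0.06 on the log2 scale (95% interval 0.03 to 0.09, a normal approximation on counts), and library scaling cancels in it. The Mir27 ratio moved by -0.10 (-0.32 to 0.12), an interval that includes 0. These intervals hold counting error only, so a shift past them compares these libraries and not a condition.

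Other paralog pairs gave a range of ratios in the same libraries. Mir17 exceeded Mir106a by 4.76 ± 0.01 and Mir20a exceeded Mir20b by 4.06 and 3.94 in the libraries, beside the Mir27 ratio of 3.89 ± 0.07. Mir130a exceeded Mir130b by 1.92 ± 0.03, and Mir99a exceeded Mir99b by 0.46 ± 0.09. The Mir23 ratio of 1.52 ± 0.04 lay between the last 2 pairs. An unequal pair was thus not particular to these clusters.

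**Figure D3:**
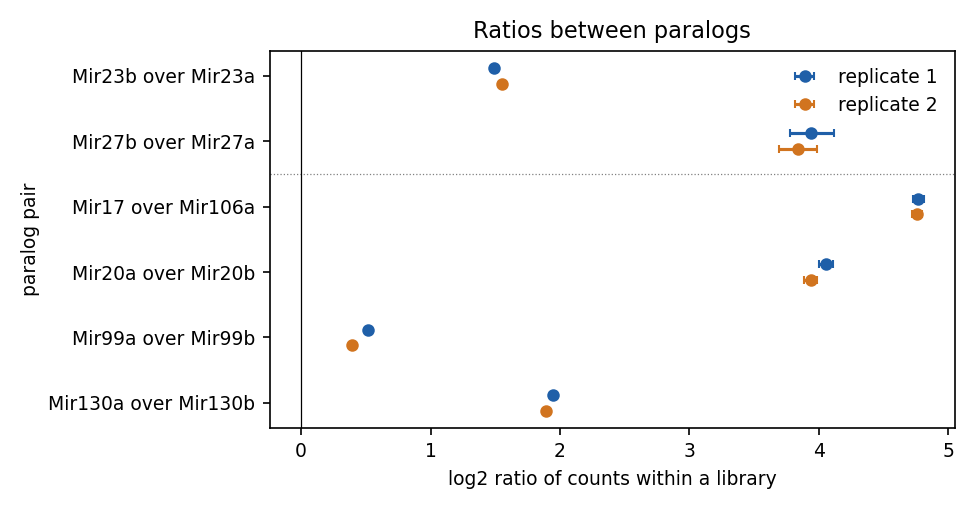
Log2 ratio of counts between paralogs within each library (horizontal axis), with exact 95% counting intervals; the Mir23 and Mir27 pairs are above the dotted line and 4 other pairs below it. The Mir27 pair, at 3.94 and 3.84, lies well to the right of the Mir23 pair, at 1.49 and 1.55.

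No row of the tables matched Mir24-1 by its GENCODE M21 identifier, so it was read through the gene that overlaps it. The tables use the older M4 annotation, and 79 of their rows matched no M21 gene; those rows held 4 sense and 1 opposite-strand counts over both libraries. Mir3074-1 is annotated on the minus strand at 63301199 to 63301283 of chromosome 13 and encloses the Mir24-1 hairpin. Its opposite-strand count, which is the strand of Mir24-1, was 97 in replicate 1 and 192 in replicate 2, or 50.0 and 82.8 CPM (66.4 ± 23.2). The sense count of Mir3074-1 itself was 255 and 298, or 131 and 128 CPM. The strand of Mir24-1 thus held 27.6% (23.0 to 32.5) of the counts at that position in replicate 1 and 39.2% (34.8 to 43.7) in replicate 2.

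By these counts the Mir24 pair ran the other way from the Mir23 and Mir27 pairs. Mir24-2 on chromosome 8 exceeded the Mir24-1 strand by a log2 ratio of 1.44 (95% interval 1.10 to 1.80) in replicate 1 and 0.97 (0.71 to 1.22) in replicate 2. Mir27b exceeded the Mir24-1 strand by 5.61 and 4.93. Reads of the shared miR-24-3p arm are in neither count, so the order holds for reads placed at 1 position and not for the mature RNA as a whole. Both Mir24 loci also overlap annotated plus-strand exons, of 2010111I01Rik and Gm26532, and fragments of those transcripts cannot be told apart in these counts. The Mir24-1 strand was counted over the whole Mir3074-1 locus, which reaches beyond the Mir24-1 hairpin. Opposite-strand counts were rare among the loci: 21 of 1973 had at least 3 in both libraries, and 9 had a higher mean than Mir3074-1. Of the members, Mir24-2 had 2 opposite-strand counts in each library, and the other 4 had 0. The limit of 3 counts equals 1.55 CPM in replicate 1 and 1.29 CPM in replicate 2.

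No member differed by 2-fold between the pools. Of the 257 loci that passed the same minimum of 100 counts, 1.95% did (5 loci), so a count of 0 in 5 is close to that background. The log2 ratio of replicate 2 over replicate 1 was 0.020 (95% interval 0.0034 to 0.037) for Mir23b and 0.053 (-0.0025 to 0.11) for Mir27b. It was -0.04 (-0.07 to -0.01) for Mir23a. Mir27a had 0.16 (-0.06 to 0.37) and Mir24-2 had 0.25 (0.02 to 0.48). These 5 values put 4 members higher in replicate 2, against 50.6% of the 257 loci.

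The ratios of the 3 abundant members were small beside those of other loci. The median absolute log2 ratio over the 257 loci was 0.14. Only 5.06% of the loci lay closer to 0 than Mir23b, 15.6% closer than Mir23a and 20.6% closer than Mir27b. For Mir27a and Mir24-2 the shares were 54.5% and 75.5%. The counting interval left out 0 for 3 of the 5 members (Mir23b, Mir23a and Mir24-2), as it did for 56.8% of the 257 loci. Scaled to all mapped reads, a total that was 3285609 in replicate 1 and 4166572 in replicate 2, Mir23b and Mir27b were lower in replicate 2, with log2 ratios of -0.066 and -0.033. The directions for these members therefore depend on the scaling.

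The Mir24-1 strand moved more than any member, with a log2 ratio of 0.73 (0.37 to 1.10), or 1.66-fold higher in replicate 2. Counts on the plus strand of both Mir24 loci were higher in replicate 2, while the sense strand of Mir3074-1 had a ratio of -0.03 (-0.28 to 0.22). The counts behind the Mir24-1 value are low.

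**Figure D4:**
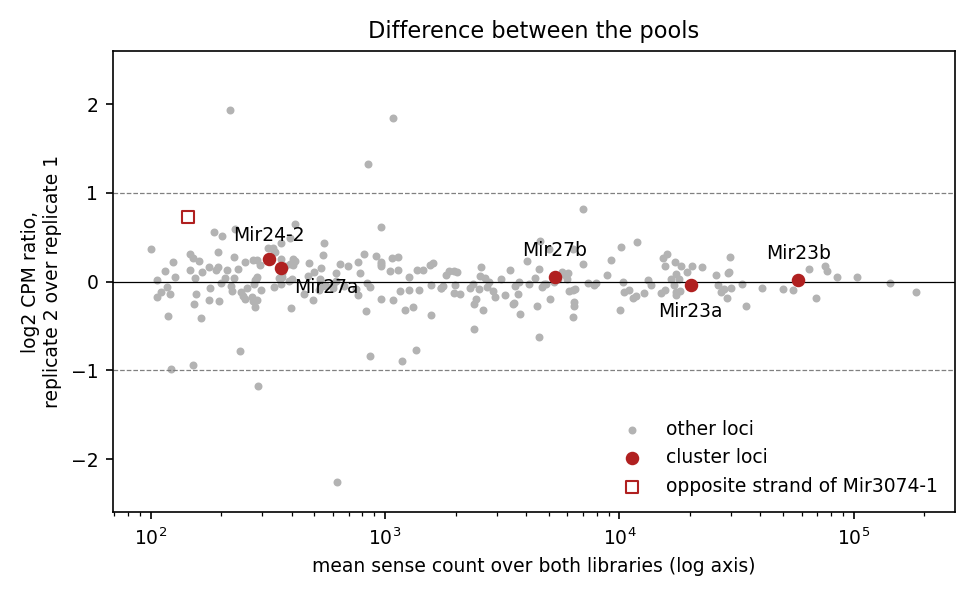
Log2 CPM ratio of replicate 2 over replicate 1 against mean sense count (log axis) for the 257 loci that passed the minimum of 100 counts; members are red, dashed lines mark 2-fold, and the open square is the opposite strand of Mir3074-1 at its own mean count. All 5 members lie between -0.04 and 0.25, and the open square at 0.73.

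Marker loci of endothelium, mesenchyme, epithelium, blood cells and striated muscle were read beside the members. The endothelial Mir126a had 39037 and 40424 CPM in the libraries, a log2 ratio of 0.05, and 1 of the 2 listed endothelial loci was measured. All 10 mesenchymal loci were detected (10 counts or more in each library), with 6.49% and 6.72% of the counts, led by Mir214 and by Mir143 at 13677 ± 719 CPM. The median log2 ratio of the mesenchymal loci was 0.04, with 5 of 10 higher in replicate 2. That of the 5 members was 0.05, as the value of Mir27b, and that of all 257 loci was 0.01.

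All 7 epithelial loci were lower in replicate 2, with a median of -0.28. They took 3.31% and 2.95% of the counts, led by Mir429 at 8239 ± 458 CPM and Mir205 at 8049 ± 165 CPM. The measured markers of blood cells were low. The 3 measured of 5 listed erythroid loci took 0.0280% and 0.0614% of the counts. Mir451a, the main erythroid microRNA, led them with 218 and 547 CPM, and Mir144 followed at 46.4 and 45.7 CPM. The 5 measured of 6 listed leukocyte loci took 0.0618% and 0.0722%. They were led by Mir223 at 424 ± 59.3 CPM and Mir155 at 183 ± 18.1 CPM, and 1 of them, Mir142b, was at 0 in both libraries. Mir142, also listed, had no matched row, so the leukocyte share leaves it out.

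The striated muscle loci took 0.0628% in replicate 1 and 0.149% in replicate 2. They were led by Mir208b at 212 and 758 CPM and Mir206 at 350 and 537 CPM. Of 8 measured loci, 2 (Mir133a-1 and Mir133a-2) were at 0. Reads placed at several positions are in none of these counts, so a 0 does not show that a mature RNA was absent. The summed erythroid and muscle counts were higher in replicate 2 by 2.19-fold and 2.38-fold, beside 1.19-fold for Mir24-2 and 1.66-fold for the Mir24-1 strand. The single loci did not all share this: Mir144 had a log2 ratio of -0.02 beside 1.33 for Mir451a, with an erythroid median of 0.40. Of the 5 muscle loci that averaged 10 counts or more, 4 were higher in replicate 2. Of these, 3 passed 2-fold: Mir208a at 1.93, Mir208b at 1.84 and Mir499 at 1.51. Mir206 had 0.62 and Mir133b had -0.0014. The part of the erythroid and muscle loci in the values of the Mir24 loci was not tested. In whole tissue, fewer cells of a type and less RNA per cell cannot be told apart, and the tables do not say which cells the members came from.

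**Figure D5:**
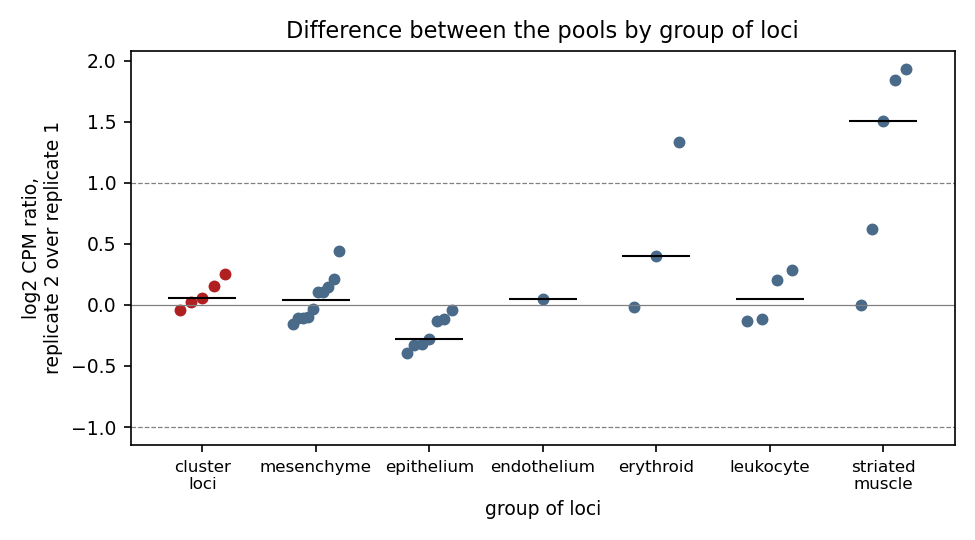
Log2 CPM ratio of replicate 2 over replicate 1 for the 5 members (red) and for marker loci averaging 10 counts or more (blue); black bars are medians and dashed lines mark 2-fold. The members run from -0.04 to 0.25 with a median of 0.05; the medians are 0.04 for mesenchyme, 0.05 for the endothelial locus, 0.04 for leukocytes, 0.40 for the erythroid loci, -0.28 for epithelium and 1.51 for muscle.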

How the data were processed

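The authors deposited raw read counts per microRNA gene for each library on mm10 with GENCODE M4, per the files that accompany the tables. The names of the aligner and the counter are not given in the sources used here. Of the 3 count columns, the sense column was used. It held 97.0% of the stranded counts in replicate 1 and 96.8% in replicate 2. The 4 lines without a gene did not enter library sizes. Of 4755968 reads in replicate 1, 40.8% were assigned on the sense strand and 30.9% were unmapped. Of 6781929 in replicate 2, these were 34.2% and 38.6%. Identifiers were matched, ignoring versions, to GENCODE M21 on the same assembly (1894 of 1973).

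CPM, log2 ratios and exact (Clopper-Pearson) intervals were computed with Python 3.11.15, pandas 2.3.3 and scipy 1.17.1. A difference of 2 loci counted as larger than the replicate difference if it passed a limit in both libraries. The limit was the larger of the 2 loci's absolute log2 ratios of replicate 2 to replicate 1. Library factors came from edgeR 4.0.16 and DESeq2 1.42.0 under R 4.3.3. The 2-fold rule and the exact interval of the pool ratio were tested on simulated counts that held counting error only. The other steps were not tested in this way. Members, lists and the rule for named loci (members, loci overlapping them, nearest loci in level, 2 leading loci a list, 4 paralog pairs) were chosen with earlier results of these data known. Counts carry no molecular identifiers in the labels. The labels number the pools as separate biological replicates and give them different numbers of embryos (109 and 88), with 1 donor entry for both.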

Additional observations from a re-analysis of the deposited data

Results flagged for a closer look

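Counts on the strand opposite Mir3074-1, outside the sense counts used for the levels, averaged 66.4 ± 23.2 CPM, with 97 and 192 counts against the limit of 3 counts. They lie on the strand of Mir24-1.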

How the results depend on the processing

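With 2 libraries, leaving out a library returns the value of the other, so it says nothing about stability. The levels then ranged from 27019 to 27398 CPM for Mir23b, 2440 to 2531 for Mir27b, 9352 to 9627 for Mir23a, 159 to 177 for Mir27a and 136 to 162 for Mir24-2. Another denominator moved levels by its construction. Over both strands they were 26355 CPM for Mir23b, 2407 for Mir27b and 9192 for Mir23a, with cluster shares of 2.88% (chromosome 13) and 0.950% (chromosome 8). Over all mapped reads the levels were 15611, 1425, 5448, 96.1 (Mir27a) and 85.2 (Mir24-2), the shares 1.70% and 0.563%, and the opposite strand of Mir3074-1 37.8 CPM, a setting chosen after seeing the data. The ratio between pools became -0.066 for Mir23b, -0.033 for Mir27b and -0.13 for Mir23a over all mapped reads, whose share assigned to loci differed between the libraries. TMM, DESeq2 size factors and the total of both strands left all 5 ratios within their intervals. The number of loci past 2-fold was 13 of 334 at a minimum mean count of 20, 3 of 170 at 500 and 235 of 708 with no filter; with 1 library it has no value. No paired analysis was possible because there is 1 group. Depth limits Mir27a, Mir24-2 and the Mir24-1 strand most.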
